A study of Mus musculus with 2 samples.

Results

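Serpina3n, Klk6, Klk8, Slc9a3r2 and Tmem140 are 5 of the 32285 genes counted in these libraries, and they were selected on their measured UMI counts, which earlier results of the same libraries placed high in a state of oligodendrocytes. They were read across oligodendrocytes and other cell classes, and then cell by cell within oligodendrocytes. Both libraries, C-ON and FMC_new, are single-cell suspensions of optic nerves of Nf1OPG mice (Nf1 flox/mut; GFAP-Cre), in which the GFAP promoter drives Cre recombinase and low-grade gliomas form along the nerve, and the labels name no treatment. Each suspension pooled nerves of 10 mice at 12 weeks of age, according to the labels. C-ON carries the word control in its title although it has the glioma genotype, and the meaning of FMC is not explained. The libraries thus form 1 group of 2, without a nerve of another genotype beside them. No test between conditions was possible, cells of a library are not replicates, and all values below are descriptions given for each library.

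Oligodendrocytes wrap axons of the optic nerve in myelin. In injured, inflamed or ageing white matter, some of them take on a reactive state that is known for the complement gene C4b, antigen presentation genes and Serpina3n. Serpina3n encodes a secreted serine protease inhibitor that is an acute-phase protein in other tissues. Klk6 and Klk8 encode secreted serine proteases of the kallikrein family. Klk6 is known for its abundance in oligodendrocytes and for cleaving myelin proteins and protease-activated receptors, and Klk8, or neuropsin, for cleaving adhesion proteins at synapses. Slc9a3r2 encodes NHERF2, a scaffold with PDZ domains that links membrane transporters to ezrin, radixin and moesin. Tmem140 encodes a small membrane protein.

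The genes were placed on GRCm38 with the GENCODE M21 annotation. Serpina3n (ENSMUSG00000021091) lies on chromosome 12 from 104406729 to 104414329 on the plus strand, with 5 exons. Klk8 (ENSMUSG00000064023), at 43797577 to 43803826, and Klk6 (ENSMUSG00000050063), at 43824499 to 43832030, lie on the plus strand of chromosome 7 with 20672 bases between them, in which Klk7 is annotated. Slc9a3r2 (ENSMUSG00000002504) lies on the minus strand of chromosome 17 from 24639286 to 24650327. Tmem140 (ENSMUSG00000057137) lies on the plus strand of chromosome 6 from 34863146 to 34874946. Klk8 overlaps 2310002F09Rik and Tmem140 overlaps Cyren, both annotated on the opposite strand. Whether the counting used strand is not given in the sources used here, so UMIs of Klk8 and Tmem140 are uncertain in the overlaps. In oligodendrocytes, 2310002F09Rik had a level of 6.06 CPM (UMIs of the gene per 1e6 UMIs of the class) for C-ON and of 9.58 CPM for FMC_new, and Cyren had 8.73 and 8.53 CPM.

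RefSeq promoter windows of GRCm38.p6, running from 250 bases before to 50 bases after a start site, were available for all 5 genes, with 2 windows each for Klk6 and Slc9a3r2. Below are those of Tmem140 at chr6:34862896-34863195, Serpina3n at chr12:104406458-104406757 and Klk8 at chr7:43797327-43797626, all on the plus strand and written 5′ to 3′. They are shown as examples. All 5 genes, Klk6 and Slc9a3r2 included, were found in the same oligodendrocytes as interferon-stimulated genes, as described further on. Capitals mark a match to any of the 4 motifs searched on both strands.
Tmem140: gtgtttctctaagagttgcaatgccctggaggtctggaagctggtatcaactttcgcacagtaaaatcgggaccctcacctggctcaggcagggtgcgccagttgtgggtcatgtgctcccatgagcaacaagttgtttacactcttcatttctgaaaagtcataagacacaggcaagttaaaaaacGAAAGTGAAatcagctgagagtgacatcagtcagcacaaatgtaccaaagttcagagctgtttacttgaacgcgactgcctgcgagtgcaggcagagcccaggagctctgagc
Serpina3n: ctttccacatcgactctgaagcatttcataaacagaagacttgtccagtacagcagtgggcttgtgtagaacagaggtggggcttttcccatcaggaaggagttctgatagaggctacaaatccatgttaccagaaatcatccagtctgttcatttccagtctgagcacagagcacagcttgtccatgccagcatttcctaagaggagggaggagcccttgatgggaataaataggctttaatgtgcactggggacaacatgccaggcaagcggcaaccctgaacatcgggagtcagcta
Klk8: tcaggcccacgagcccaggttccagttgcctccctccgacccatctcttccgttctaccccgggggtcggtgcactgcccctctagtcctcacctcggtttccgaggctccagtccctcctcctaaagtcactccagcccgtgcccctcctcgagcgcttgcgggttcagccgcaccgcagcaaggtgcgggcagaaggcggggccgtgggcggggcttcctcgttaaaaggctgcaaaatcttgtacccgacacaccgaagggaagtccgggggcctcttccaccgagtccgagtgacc
The motifs were the core of the interferon-stimulated response element (GAAANNGAA), the STAT site (TTCNNNGAA), the AP-1 site (TGANTCA) and the SOX site (ACAAAG). Tmem140 held the interferon element core, as did 8.56% of all 32851 windows of 300 bases. Serpina3n and Klk8 held none of the 4 motifs in these windows. Klk6 held a SOX match in the window at chr7:43824294-43824593, as did 18.7% of all windows, and Slc9a3r2 an AP-1 match at chr17:24644908-24645207, as did 7.81%. No window of the 5 genes held the STAT site, which 8.30% of all windows hold. A match is a description of the letters and does not show binding.

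Cells were taken as oligodendrocytes with at least 4 unique molecular identifiers (UMIs, 1 for each captured transcript) of the myelin genes Mag, Mog, Ermn and Aspa together and none of the leukocyte gene Ptprc. This gave 5848 of 8834 cells (66.2%) in C-ON and 2592 of 16818 cells (15.4%) in FMC_new, with a median of 7700 and 7100 UMIs. Markers that did not enter the rule fitted the name. Sox10, the transcription factor of the lineage, was found in 85.6% and 73.9% of these cells and in about 2% of T cells (2.16% and 2.09%), and the precursor gene Pdgfra in 0.804% and 2.39%. Markers of other classes were at 4 or more UMIs in 188 and 319 of the oligodendrocytes. The libraries shared 296 barcodes, 188 of them among the cells kept in both. Free RNA was present in each suspension. The myelin gene Mbp had a UMI in 92.5% and 95.3% of T cells, and in FMC_new the pituitary gene Gh had one in 99.9% of oligodendrocytes and of T cells, against 0 of the C-ON oligodendrocytes. Shares of cells are given with exact Clopper-Pearson and levels with exact Poisson 95% intervals, which cover counting error only.

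All 5 genes were present in oligodendrocytes of both libraries, at levels that differed between libraries by more than counting error. Serpina3n had a UMI in 53.0% (51.7 to 54.3) of oligodendrocytes in C-ON and in 66.0% (64.2 to 67.9) in FMC_new. Its level was 348 CPM (343 to 354) and 895 CPM (882 to 908), with a mean of 622 ± 386 (SD, n = 2 libraries). Klk6 was found in 74.2% and 76.7% of oligodendrocytes, at 2054 and 3510 CPM and a mean of 2782 ± 1029 (SD, n = 2). Its intervals of level were 2041 to 2067 CPM in C-ON and 3484 to 3537 in FMC_new. For both genes FMC_new was the higher library, by 2.57 times for Serpina3n and by 1.71 times for Klk6.

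The other 3 genes were found in fewer oligodendrocytes. Klk8 had a UMI in 9.17% (8.44 to 9.93) of them in C-ON and 12.8% (11.6 to 14.2) in FMC_new. Its level was 101 CPM (98.5 to 104) and 83.7 CPM (79.7 to 87.9), so that the library with the larger share had the lower level. Slc9a3r2 was found in 12.3% and 20.1% of oligodendrocytes, at 40.8 CPM (39.0 to 42.7) and 62.1 CPM (58.6 to 65.7). Tmem140 was found in 9.03% and 19.4%, at 39.1 CPM (37.4 to 41.0) and 60.4 CPM (57.0 to 64.0). The means over both libraries were 92.5 ± 12.5 for Klk8, 51.5 ± 15.1 for Slc9a3r2 and 49.8 ± 15.1 for Tmem140 (SD, n = 2).

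UMIs of these genes were unevenly spread over oligodendrocytes. At full depth, the single cell with the most UMIs of Klk8 held 135 in C-ON and 68 in FMC_new, and its UMIs lay in 536 and 333 oligodendrocytes. The highest cell of Serpina3n held 132 and 121 UMIs, and that of Klk6 held 444 and 482. For Slc9a3r2 the highest cell held 19 and 21 UMIs, and for Tmem140 24 and 27. Without its highest cell, each gene's level in oligodendrocytes moved by less than 5% in either library (Klk8 to 98.5 and 80.2 CPM, Tmem140 to 38.6 and 59.0 CPM). The classes differed in depth, so each cell was also thinned to 2000 UMIs drawn at random, which 5556 and 2299 oligodendrocytes reached. Shares in the thinned cells were 28.1% and 48.0% for Serpina3n, 58.9% and 67.1% for Klk6, 5.65% and 7.26% for Klk8, 5.31% and 9.18% for Slc9a3r2, and 4.36% and 9.26% for Tmem140.

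**Figure D1:**
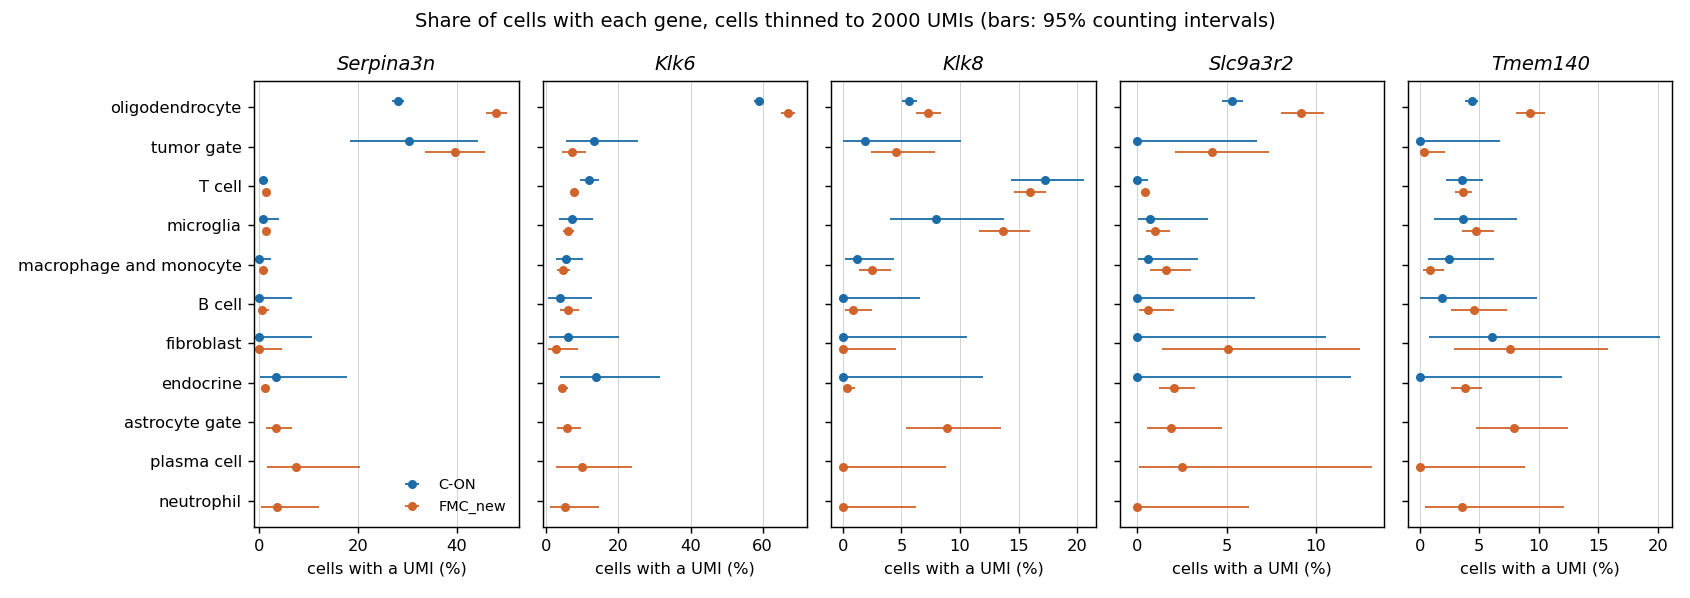
Share of cells with at least 1 UMI of each gene (x axis, percent) by cell class (y axis), after thinning every cell to 2000 UMIs, in C-ON (blue) and FMC_new (orange). Points are shares and bars exact 95% intervals for counting error. Serpina3n stands out in oligodendrocytes and cells of the tumor gate, Klk6 in oligodendrocytes, and Klk8 is found most often in T cells.

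Outside oligodendrocytes, Serpina3n was found in cells that passed the tumor gate (Lhfpl3, C1ql1, Cspg5 and Cspg4, without Ptprc), genes that precursors of the oligodendrocyte lineage also express. There it had a UMI in 23 of 61 cells in C-ON (37.7%, 25.6 to 51.0) and in 167 of 344 in FMC_new (48.5%, 43.2 to 54.0), at 228 CPM (173 to 293) and 710 CPM (668 to 753). In the thinned cells the share was 30.2% (18.3 to 44.3) and 39.5% (33.6 to 45.7). In C-ON this interval holds the oligodendrocyte share of 28.1%, while in FMC_new it lies below the 48.0% of oligodendrocytes. T cells, which should lack the gene, held it in 0.862% and 1.90% of cells, at 2.14 and 20.4 CPM. A single T cell held 40 of the 267 Serpina3n UMIs of T cells in FMC_new. In microglia, Serpina3n was found in 1.33% and 2.67% of cells. In fibroblasts and B cells, it was found in at most 5.56% of cells, which in C-ON fibroblasts are 2 of 36. Cells passing the astrocyte marker gate in FMC_new held it in 14 of 254 (5.51%, 3.05 to 9.08), at 17.7 CPM. Plasma cells of FMC_new held it in 3 of 43 (6.98%, 1.46 to 19.1). Cells of the tumor gate were also read by what else they held. In FMC_new, H2-D1 was found in 82.7% (74.0 to 89.4) of the 104 thinned cells with Serpina3n and in 62.3% (54.2 to 69.8) of the 159 without. C4b was found in 38.5% (29.1 to 48.5) and 25.2% (18.6 to 32.6) of them, and these intervals overlap. These cells held little Klk6 at either side, with 8.65% of cells with and 6.29% without Serpina3n. In C-ON only 16 thinned cells of this gate held Serpina3n, and the H2-D1 share of 43.8% (19.8 to 70.1) overlapped the 10.8% (3.03 to 25.4) of the 37 without.

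Klk6 marked oligodendrocytes by level. It had a UMI in 19.4% (16.5 to 22.5) of T cells in C-ON and 12.8% (11.7 to 14.0) in FMC_new, at 59.5 and 35.9 CPM. In every other class of at least 20 cells, its level lay between 28.4 and 61.7 CPM in C-ON and between 17.1 and 78.3 CPM in FMC_new. The highest of these in FMC_new was that of neutrophils (51.1 to 115 CPM) and the lowest that of fibroblasts (7.39 to 33.7 CPM). How much of this is free RNA was not tested. The oligodendrocyte level was 34.5 times that of T cells in C-ON and 97.7 times in FMC_new. Cells of the tumor gate, at 61.7 (35.3 to 100) and 35.6 (26.8 to 46.4) CPM of Klk6, did not stand above T cells beyond counting error.

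Klk8 did not mark oligodendrocytes by class, which goes against reading it as a gene of oligodendrocytes alone. It was found in 27.0% (23.7 to 30.5) of T cells in C-ON and 26.3% (24.8 to 27.9) in FMC_new, at 91.1 CPM (80.3 to 103) and 88.1 CPM (83.1 to 93.3). These levels overlap those of oligodendrocytes in both libraries. Microglia held it in 26.7% and 31.4% of cells, at 60.8 and 84.5 CPM. By contrast, macrophages and monocytes held it in 5.06% and 4.24%, B cells in 0 of 57 cells, a count that allows up to 5.26%, and in 1.06%, and endocrine cells in 1.99% in FMC_new. In FMC_new, the cells passing the astrocyte marker gate held it in 20.5%. These 254 cells were led by Mia, Cldn10, Folr1, Aldh1a2, Sox9, Cyp2f2, Mlc1, Agt, Aldoc and Slc39a12, of which several, such as Sox9, Mlc1 and Agt, are known in astrocytes, and they are called here by their gate. The shares thus differed between classes of the same suspension by more than counting error. In the thinned cells, the Klk8 share of T cells was 17.3% (14.3 to 20.6) and 16.0% (14.6 to 17.4), above the 5.65% and 7.26% of oligodendrocytes.

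The form of the Klk8 signal differed between these classes. In T cells the highest cell held 5 and 6 UMIs, where the highest oligodendrocyte held 135 and 68. Thinned T cells with and without Klk8 held Klk6 alike, in 14.6% (8.39 to 22.9) and 11.2% (8.52 to 14.3) of cells in C-ON and in 7.87% and 7.47% in FMC_new. Cd8a was found in 43.7% and 47.5% of them in C-ON and in 44.2% and 42.1% in FMC_new. In FMC_new microglia, Klk8 went with a modest difference in P2ry12, found in 69.8% (61.4 to 77.3) of cells with and 57.6% (54.3 to 60.9) without it. The antisense gene 2310002F09Rik was at 3.92 and 2.60 CPM in T cells.

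Slc9a3r2 was near absent from T cells, with a UMI in 0.287% and 0.951% of them, and was found in fibroblasts, in 16.7% (6.37 to 32.8) of 36 cells and 23.9% (15.4 to 34.1) of 88. In FMC_new its level of 51.4 CPM (32.9 to 76.4) in fibroblasts overlapped that of oligodendrocytes. Tmem140 was found across many classes. T cells held it in 8.19% and 7.13% of cells, microglia in 12.7% and 12.6%, and fibroblasts in 13.9% and 18.2%, while the tumor gate held it in 0 of 61 cells, which allows up to 4.92%, and in 1.45%. In the thinned cells of C-ON, the Tmem140 share of oligodendrocytes (4.36%, 3.83 to 4.93) overlapped that of T cells (3.52%, 2.19 to 5.34). In FMC_new, 9.26% (8.11 to 10.5) of oligodendrocytes stood above 3.62% (2.95 to 4.39) of T cells.

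Relatives of these genes were compared by class. Of 26 kallikrein genes in the files, 3 had a UMI in at least 2% of oligodendrocytes of either library, and 11 had none. Klk9, the third of them, was found in 3.66% and 6.10% of oligodendrocytes, at 6.08 and 12.9 CPM, and in at most 0.253% of T cells. Klk7, which lies between Klk8 and Klk6, was found in 0.308% and 0.579%. Of 62 serpin genes, 12 reached 2% of oligodendrocytes in either library and 29 had no UMI there. Serpinb1a, an inhibitor of neutrophil proteases inside cells, was found in 88.7% and 73.0%, at 615 and 428 CPM, so that C-ON was the higher library, the reverse of Serpina3n. Serpind1, or heparin cofactor II, was found in 27.1% and 30.6%, at 57.0 and 85.2 CPM against 1.42 and 1.30 in T cells.

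The remaining serpins named by level were spread over classes. Serpinb6a was found in 43.8% and 39.8% of oligodendrocytes and in 27.4% and 22.8% of T cells. Serping1, the inhibitor of complement C1, reached 22.6 and 30.6 CPM in oligodendrocytes and 88.9 and 17.1 in microglia. Serpini1, or neuroserpin, was at 7.04 and 6.96 CPM in oligodendrocytes. Serpine2, or protease nexin 1, was at 1033 and 1073 CPM in the tumor gate, 548 and 354 in microglia, and 3.24 and 21.5 in oligodendrocytes. Serpina3g, a close relative of Serpina3n, was at 206 and 182 CPM in T cells and at 1.25 and 4.13 in oligodendrocytes. Serpina3m, found in 0.667% and 2.85% of oligodendrocytes, had no UMI in T cells, microglia or the tumor gate. Genes of the Serpina3 cluster are related copies, and how reads shared between them were counted was not examined. Serpina3m is therefore uncertain, and Serpina3n and Serpina3g may be affected as well. Serpinb9, Serpinf1 and Serpinh1 each stayed under 3% of oligodendrocytes in both libraries.

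Within oligodendrocytes, each of the 5 genes was found in a larger share of the cells that held another of them than of the cells that did not, as the choice of the set fixed. Serpina3n split the thinned oligodendrocytes into 1560 with and 3996 without a UMI in C-ON, and into 1103 and 1196 in FMC_new. Klk8 was found in 16.2% (14.4 to 18.1) of cells with Serpina3n and 1.55% (1.19 to 1.98) of those without in C-ON, a ratio of 10.4. FMC_new had 13.7% (11.7 to 15.9) and 1.34% (0.767 to 2.16), a ratio of 10.2. Thinned to 1000 UMIs the ratios were 11.8 and 6.92, and to 4000 UMIs 11.6 and 6.93, so the libraries were near each other only at 2000 UMIs among these depths. Slc9a3r2 was found in 13.8% of cells with and 80 of 3996 cells without Serpina3n in C-ON and in 14.3% and 4.43% in FMC_new. Tmem140 was found in 12.1% and 1.35% in C-ON and in 14.1% and 4.77% in FMC_new. Klk6, already common without Serpina3n, was found in 75.0% and 52.7% in C-ON and in 83.4% and 52.0% in FMC_new.

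**Figure D2:**
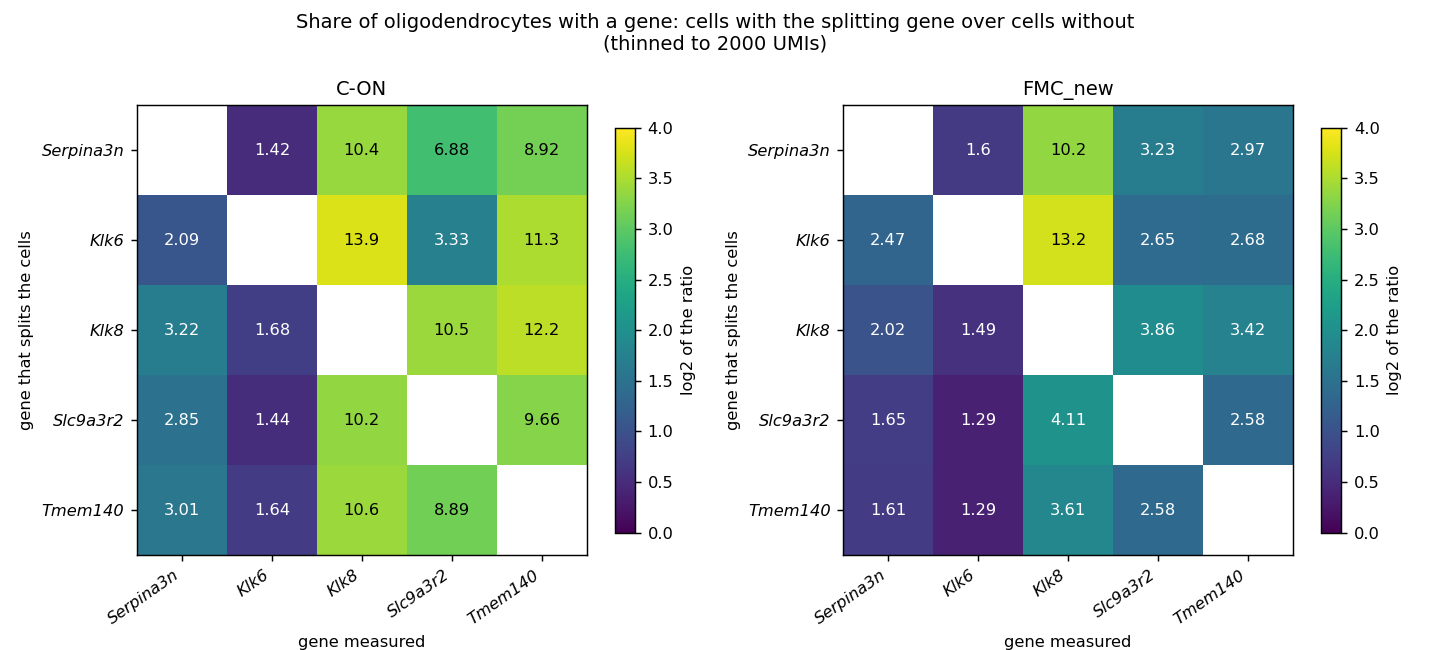
Ratio of the share of oligodendrocytes with the measured gene (columns) among cells with the splitting gene (rows) to that among cells without it, after thinning to 2000 UMIs, in C-ON (left) and FMC_new (right). Numbers are ratios and colours their log2. All 20 ratios of each library are above 1, from 1.42 to 13.9 in C-ON and from 1.29 to 13.2 in FMC_new.

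Klk8 was the most nested of the set by its shares with Klk6 and Serpina3n, though in C-ON the intervals of Tmem140 overlapped. Of the 314 thinned oligodendrocytes with Klk8 in C-ON, 95.2% (92.2 to 97.3) also held Klk6 and 80.3% (75.4 to 84.5) held Serpina3n. Of the 167 in FMC_new, 96.4% and 90.4% did. For cells with Tmem140 these shares were 94.2% (90.5 to 96.8) and 77.7% (71.9 to 82.8) in C-ON. In FMC_new they were 84.5% (78.9 to 89.1) and 73.2% (66.8 to 79.1). Klk8 was found in 15 of 2281 oligodendrocytes without Klk6 in C-ON (0.658%, 0.369 to 1.08) and in 6 of 757 in FMC_new (0.793%, 0.291 to 1.72). Both genes are kallikreins of 1 cluster, but Klk6 was found in 2976 and 1381 oligodendrocytes that had no Klk8 UMI at this depth. Among cells with Klk8, Slc9a3r2 was in 36.3% and 29.3% and Tmem140 in 32.5% and 26.9%.

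Over the 10 pairs, taken with the order of the list as the splitting gene, the median ratio was 10.0 in C-ON and 3.10 in FMC_new. A ratio over 2 was reached by 9 pairs in both libraries, and Klk6 split by Serpina3n was the pair below 2. With the later gene of the list as the splitting gene, 5 pairs reached it, and the medians were 2.93 in C-ON and 1.84 for FMC_new. The odds ratio, which does not depend on which gene splits the cells, had a median of 12.2 in C-ON and 3.96 in FMC_new, and its lowest value was 2.70 and 2.86. The pairs of Tmem140 with Slc9a3r2 and with Klk6 had odds ratios of 13.2 and 12.1 in C-ON but 2.99 and 2.90 in FMC_new. The pair of Klk6 and Klk8 had 15.2 and 14.6. That nearness depended on the depth, since the ratio of Klk8 shares split by Klk6 was 13.9 and 13.2 at 2000 UMIs but 8.88 and 16.7 at 1000 UMIs and 20.1 and 17.0 at 4000 UMIs. The difference between the libraries was not tested, since nothing replicates either of them.

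Most oligodendrocytes held few of these genes at once. In C-ON, 33.0% of the thinned oligodendrocytes held none of the 5, 43.5% held 1 and 15.7% held 2. FMC_new had 23.1%, 32.6% and 29.3%. All 5 were found in 41 cells in C-ON (0.738%, 0.530 to 1.00) and in 13 in FMC_new (0.565%, 0.301 to 0.965). Cells with 4 of the 5 numbered 149 and 82.

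**Figure D3:**
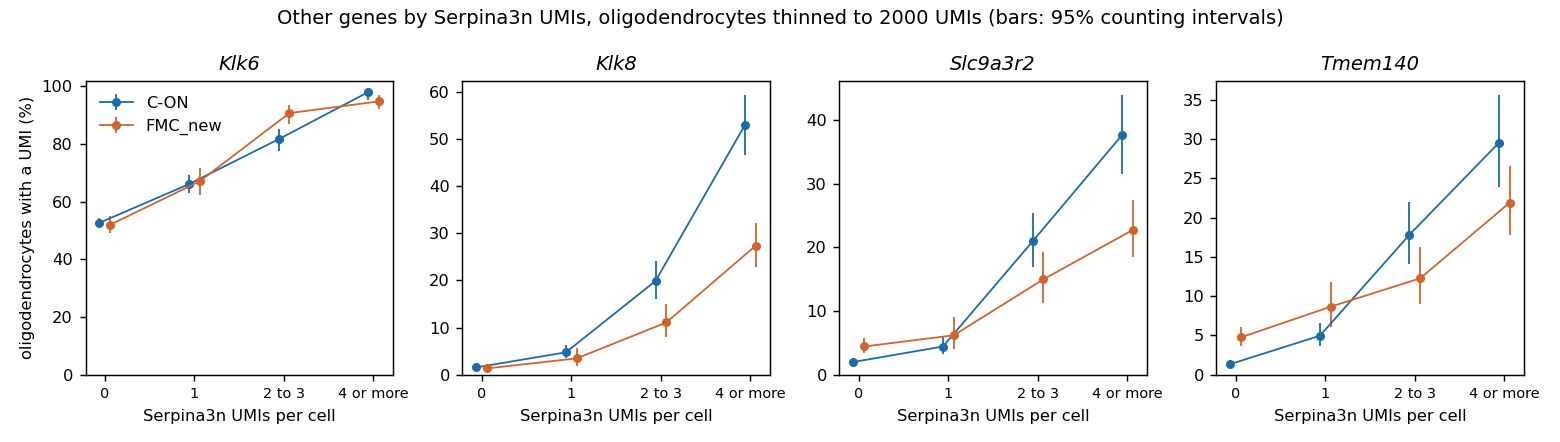
Share of thinned oligodendrocytes with a UMI of Klk6, Klk8, Slc9a3r2 and Tmem140 (y axis, percent) by the number of Serpina3n UMIs in the cell (x axis), in C-ON (blue) and FMC_new (orange), with exact 95% intervals. Each share is highest in cells with 4 or more Serpina3n UMIs, where Klk8 reaches 53.0% and 27.4%.

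Co-detection followed the amount of Serpina3n. The Klk8 share ran from 1.55% of cells with no Serpina3n UMI to 4.75% with 1, 19.9% with 2 to 3 and 53.0% (46.6 to 59.4) with 4 or more in C-ON. In FMC_new it ran from 1.34% to 3.47%, 11.1% and 27.4% (22.9 to 32.3). Slc9a3r2 reached 37.7% and 22.7% in cells with 4 or more Serpina3n UMIs, and Tmem140 29.6% and 21.9%. Klk6 reached 98.0% and 94.8% of these cells, with a mean of 17.0 and 16.1 UMIs per cell, against 2.23 and 2.42 in cells without Serpina3n. The cells with 4 or more Serpina3n UMIs numbered 247 in C-ON and 365 in FMC_new.

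Mature oligodendrocytes are known to differ along programmes marked by genes such as Hopx and Ptgds, and the reactive state is known for C4b. The 5 genes divided over these markers. Klk6 went with Hopx, a homeodomain-only protein, which was in 39.6% (37.9 to 41.3) of oligodendrocytes with Klk6 and 6.93% (5.92 to 8.05) of those without in C-ON, and in 31.0% and 5.55% in FMC_new. Klk6 cells held Ptgds, the prostaglandin D2 synthase, less often, in 29.9% against 70.5% in C-ON and 39.8% against 76.6% in FMC_new. Opalin, a myelin membrane gene, was in 45.0% against 79.9% and in 42.2% against 69.2%. Serpina3n did not separate on these genes to that extent, with Hopx in 29.7% against 24.8% and 24.0% against 21.3%. It did separate on C4b, found in 42.8% against 9.91% in C-ON and 70.7% against 29.3% in FMC_new.

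**Figure D4:**
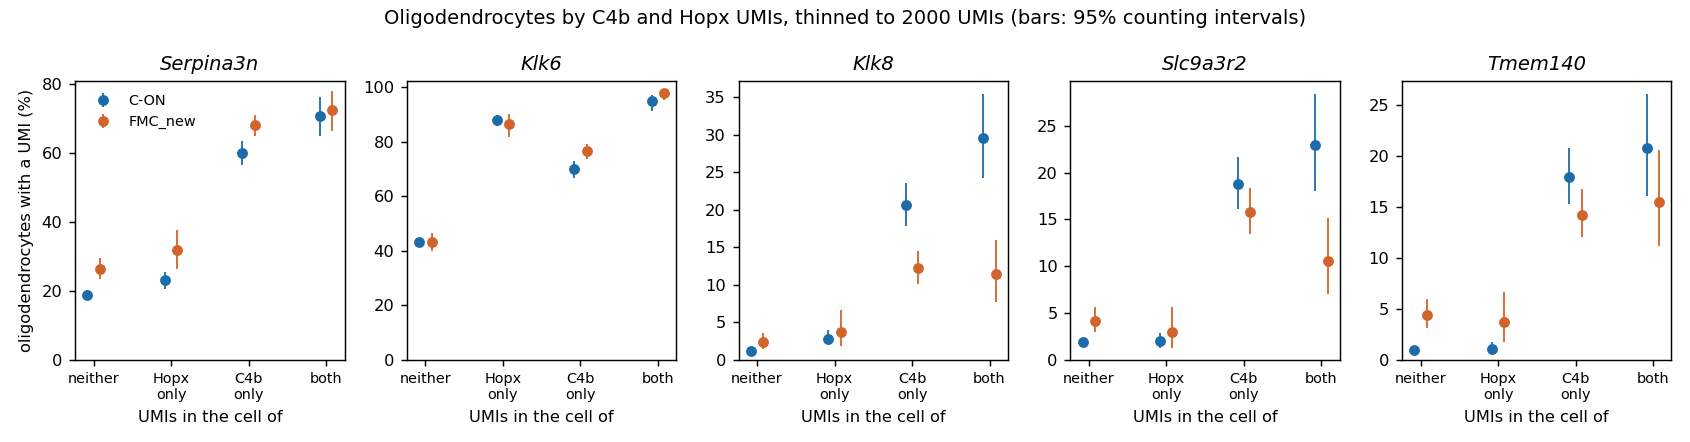
Share of thinned oligodendrocytes with each gene (y axis, percent) in cells without C4b and Hopx UMIs, with Hopx only, with C4b only and with both (x axis), in C-ON (blue) and FMC_new (orange), with exact 95% intervals. Klk6 is higher with either gene, while Serpina3n, Klk8, Slc9a3r2 and Tmem140 are higher with C4b.

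Read against both markers at once, the sets of cells differed. In oligodendrocytes with Hopx and no C4b (1184 in C-ON and 274 in FMC_new), Klk6 was in 87.8% and 86.5% of cells, against 43.0% and 43.3% of those with neither gene. Serpina3n was in 23.0% and 31.8% of these Hopx cells, against 18.7% and 26.4% with neither. Klk8, Slc9a3r2 and Tmem140 were in at most 3.65% of the Hopx cells. In oligodendrocytes with C4b and no Hopx (794 and 885 cells), Serpina3n was in 60.1% and 68.0%, Klk8 in 20.7% and 12.2%, Slc9a3r2 in 18.8% and 15.8%, and Tmem140 in 17.9% and 14.2%. Klk6 was in 69.9% and 76.5% of them. Cells with C4b made up a larger part of FMC_new, where C4b without Hopx was 38.5% of oligodendrocytes against 14.3% in C-ON.

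Across all genes, each member split the thinned oligodendrocytes, and 7908 genes with a UMI in at least 2% of oligodendrocytes of both libraries were read. A gene was called higher where its mean UMIs per cell were at least 2 times as high in cells with the member as in cells without, in both libraries, and lower at a ratio of at most 0.5 in both. Splitting by Serpina3n called 68 genes higher, 0.86% of those read, among them all 4 other members, which the choice of the set fixed. It called 1 lower, 0.0126%. Splitting by Klk6 called 99 higher (1.25%), all 4 other members included, and 32 lower (0.405%). The lower calls of Klk8, Slc9a3r2 and Tmem140 given next depend on the depth, and thinning to 1000 UMIs kept 23, 7 and 4 of them and thinning to 4000 UMIs 20, 13 and 8. Splitting by Klk8 called 84 higher (1.06%) and 101 lower (1.28%), by Slc9a3r2 60 (0.759%) and 57 (0.721%), and by Tmem140 82 (1.04%) and 60 (0.759%). All other members were among the genes called higher for Klk8, Slc9a3r2 and Tmem140 too, and none was called lower. The median ratio over all genes was between 0.946 and 1.00 for each member and library.

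The genes most like Serpina3n, by the mean log2 ratio over both libraries, were Klk8 and a series of interferon-induced genes. Klk8 led with a mean log2 ratio of 4.26 ± 0.49 (SD, n = 2 libraries). Gbp4, Gbp2 and Gbp3, guanylate-binding proteins of antimicrobial defence, had ratios of 18.0, 20.8 and 16.5 in C-ON and of 5.26, 4.02 and 3.23 in FMC_new. Ifi47, Iigp1 and Gm4951, of the interferon-inducible GTPases, had ratios of 18.2, 13.5 and 17.8 (C-ON) and of 4.09, 4.07 and 3.97 (FMC_new). Zbp1, a sensor of nucleic acids, had 14.8 and 4.34. Fxyd1, a regulator of the sodium pump, had 11.2 and 6.58, and the complement inhibitor Serping1 11.3 and 6.25. These ratios were larger in C-ON for each of the 10 genes.

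For Klk6 the leading genes mixed interferon-induced genes with others. Gbp2, Gm4951, Zbp1, Serping1, Fxyd1 and Il18bp, which binds interleukin 18, were shared with the lists of other members. St8sia5, a sialyltransferase of gangliosides, had ratios of 58.2 and 14.6, and the homeobox gene Barx2 22.7 and 5.79. Hopx had 9.30 and 10.0, and Klk8 led the list with 43.3 and 27.5. Lowest were the immunoglobulin gene Igkv6-15, with 0.0914 and 0.0913, and Ptgds, with 0.177 and 0.232. Ttyh1 had 0.252 and 0.256, the glutamate receptor gene Grm7 0.287 and 0.324, and the adhesion gene Kirrel3 0.260 and 0.419. Ighv8-12, Hivep2, Lhfpl2, Lypd6 and 5033421B08Rik completed the 10 lowest. The immunoglobulin values rest on few cells, as 5 oligodendrocytes held 83.1% of the Igkv6-15 UMIs in C-ON and 62.1% in FMC_new. Igkv6-15 was also the gene called lower with Serpina3n.

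For Klk8 the leading genes were Gbp2 (24.1 and 8.77), Il18bp (23.5 and 8.97), Serping1 (23.2 and 7.60), Isg15 (20.5 and 6.27), a ubiquitin-like modifier, and Ifi47 (18.0 and 5.66). Gbp4, Fxyd1, Zbp1, Gm4951 and H2-T23, a non-classical class I gene, followed, with 15.1 to 20.6 in C-ON and 3.53 to 5.90 in FMC_new. For Slc9a3r2 they were Klk8 (16.8 and 5.28), Gbp2, Gbp4, Serping1 and Zbp1. For Tmem140 they were Gbp2 (23.1 and 13.5), Ifi47, Gbp4, Iigp1 and Gm4951, each at 19.4 or more in C-ON and 6.64 or more in FMC_new. The genes lowest with Klk8, led by Abca8b, Pxdn and Tmem132a, had at most 16 UMIs in the cells with Klk8, too few to read a level from. Those lowest with Slc9a3r2 and Tmem140, such as A530053G22Rik, had at most 18, apart from the immunoglobulin genes Ighv8-12 and Igkv8-21.

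Genes that interferons induce were called higher with every member. Members and list were chosen with earlier results of these data known, so the counts describe these libraries and are no independent support. Over all genes read, a member called 0.759% to 1.25% higher. Of 15 in the list, 14 were read. Tmem140 called all 14 higher, Klk8 and Slc9a3r2 11 each, and Serpina3n and Klk6 10 each, and none was called lower. The list's median ratio for Tmem140 was 11.2 in C-ON and 3.78 in FMC_new, against medians of 0.965 and 0.981 over all genes. For Serpina3n it was 7.70 and 2.52, for Klk6 6.27 and 2.34, for Klk8 11.5 and 2.72, and for Slc9a3r2 8.78 and 2.69. Iigp1, an immunity-related GTPase, was in 76.4% (70.6 to 81.6) of oligodendrocytes with Tmem140 and 5.57% (4.97 to 6.22) of those without in C-ON, and in 67.1% (60.4 to 73.4) and 14.7% (13.2 to 16.3) in FMC_new. Iigp1 was likewise in 65.0% of oligodendrocytes with Klk8 and 5.28% of those without (C-ON), and in 50.9% and 17.1% (FMC_new).

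**Figure D5:**
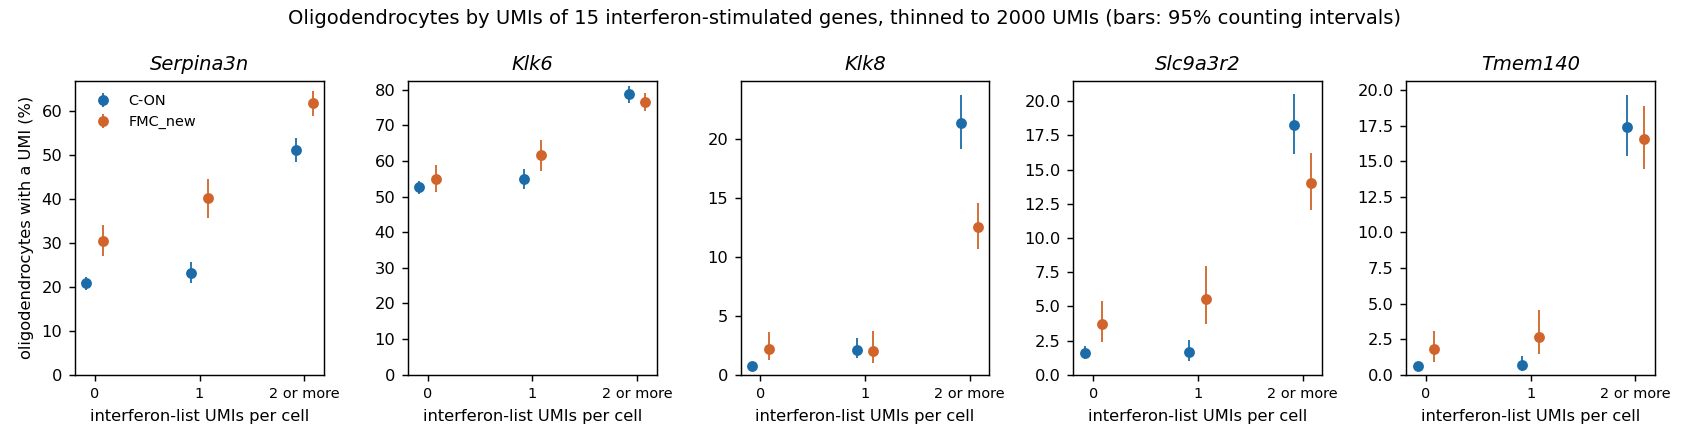
Share of thinned oligodendrocytes with each gene (y axis, percent) by the summed UMIs of 15 interferon-stimulated genes in the cell (x axis), in C-ON (blue) and FMC_new (orange), with exact 95% intervals. Klk8, Slc9a3r2 and Tmem140 are found in 12.5% to 21.4% of cells with 2 or more such UMIs and in at most 5.53% of cells with 0 or 1.

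The members were then read by the summed UMIs of this list in each cell. In cells with 2 or more such UMIs (1239 in C-ON and 1133 in FMC_new), Klk8 was in 21.4% (19.1 to 23.8) and 12.5% (10.7 to 14.6), and in cells with none (3099 and 678) in 0.742% (0.471 to 1.11) and 2.21% (1.24 to 3.62). Tmem140 was in 17.4% and 16.6%, against 0.581% and 1.77%. Slc9a3r2 was in 18.2% and 14.0%, against 1.58% and 3.69%. Serpina3n was in 51.2% and 61.8%, against 20.8% and 30.5%, and Klk6 in 78.7% and 76.6%, against 52.6% and 55.0%. Cells with 1 such UMI were nearer to cells with none, with Klk8 in 2.13% and 2.05% of them.

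Among cells with no UMI of the list, the median ratio over the 10 pairs was 0.944 in C-ON, from 0 to 2.79, and 2.83 in FMC_new, from 0 to 14.8. Several of these pairs rest on few cells. Klk6 split by Serpina3n was at 1.29 and 1.55, Slc9a3r2 split by Klk6 at 0.676 and 0.755, and no cell held both Slc9a3r2 and Tmem140. The pair of Serpina3n and Klk8, the highest in FMC_new, is given in full. In C-ON cells with no UMI of the list, Klk8 was in 0.155% (0.00393 to 0.862) of those with Serpina3n and 0.896% (0.562 to 1.35) of those without, so the co-detection of this pair was not seen there. With 2 or more UMIs of the list, the shares were 37.4% (33.6 to 41.3) and 4.63% (3.10 to 6.62). In FMC_new the pair was found together on both sides, in 6.28% (3.39 to 10.5) against 0.425% (0.0515 to 1.53) with no such UMI and in 18.7% (15.9 to 21.8) against 2.54% (1.27 to 4.50) with 2 or more.

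The remaining lists, also chosen with earlier results of these data known, held fewer called genes. Over all genes read, a member called 0.759% to 1.25% higher. Of 12 genes of reactive oligodendrocytes, 11 were read. Serpina3n called 4 of them higher, namely C4b (6.13 and 3.06) and the antigen presentation genes H2-D1 (7.46 and 2.28), H2-K1 (7.20 and 2.10) and B2m (6.36 and 2.02). Tmem140 called the same 4, Klk8 and Slc9a3r2 called 6 each, which were Il33, H2-D1, H2-K1, B2m, Cd63 and Anxa2, and Klk6 called 1, C4b. Il33, an alarmin cytokine, was in 64.6% of Klk8 oligodendrocytes against 26.2% in C-ON and 72.5% against 41.9% in FMC_new. With Klk6 it was less frequent, at 21.3% against 38.5% and 40.9% against 50.6%. Of 14 STAT3 and acute-phase genes, 5 were read. Cebpd, a transcription factor of the acute phase, was called higher with Serpina3n (4.28 and 2.01) and Klk8 (6.22 and 2.08), and no other was called. Socs3, the feedback inhibitor of STAT3, was in under 2% of C-ON oligodendrocytes (1.58%) and was not read. It was found in 3.91% against 0.676% of cells with and without Serpina3n in C-ON and in 10.1% against 4.77% in FMC_new.

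Genes of mature oligodendrocyte subtypes were called by Klk6. Of 14 read, 4 were higher, with ratios in C-ON and FMC_new of 9.30 and 10.0 for Hopx, 7.96 and 6.26 for the homeobox gene Nkx2-9, 5.92 and 3.57 for Anxa5, and 4.12 and 2.29 for S100b. Ptgds was lower. With Serpina3n and Tmem140 none of the 14 was called, Klk8 called Il33 higher and Ptgds lower, and Slc9a3r2 called Il33. The Ptgds call of Klk8 is one of mean UMIs, and the intervals of its shares overlapped. Ptgds was in 45.2% (39.6 to 50.9) of cells with Klk8 and 46.7% (45.3 to 48.0) without in C-ON. In FMC_new it was in 43.7% (36.1 to 51.6) and 52.6% (50.4 to 54.7). Among the 10 core myelin genes, none was called with any member, and their median ratio with Serpina3n was 0.955 and 0.970. Of 14 substrates and receptors of kallikreins and serpins, 3 were read and none was called. The protease-activated receptor genes F2r and F2rl1 were in at most 0.174% of oligodendrocytes. Of 10 partners of NHERF proteins, 4 were read, and Slc9a3r1, which encodes NHERF1, was higher with Klk6 (3.25 and 2.16) and not called with Slc9a3r2. Of 12 dissociation stress genes, 8 were read and none was called with any member. Over all 7908 genes, a member called only 0.759% to 1.25% higher and 0.0126% to 1.28% lower. Lists this short without a call are near that share, so the absence of calls says nothing particular about their genes.

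Depth, RNA quality and markers of other classes moved with the split as follows, and their part in the co-detection was not tested. Before thinning, oligodendrocytes with Serpina3n had a median of 8649 UMIs against 7695 without in C-ON, and 8508 against 6896.5 in FMC_new. Their median mitochondrial share was 1.91% against 2.19% and 1.53% against 1.75%. With Klk8 it was 1.35% against 2.16% and 1.37% against 1.68%, and with Tmem140 1.24% against 2.15% and 1.43% against 1.68%. The mean of dissociation stress UMIs in thinned cells was lower with Serpina3n, at 1.11 against 1.18 and 3.21 against 3.55, and higher with Klk8, at 1.52 against 1.14 and 4.20 against 3.32. Cells with 4 or more UMIs of the markers of another class were 3.97% against 3.05% in C-ON and 11.2% against 14.0% in FMC_new. With Klk8 they were 7.32% against 3.07% and 12.6% against 12.7%. Without these cells, the median pair ratio was 10.6 in C-ON and 3.16 in FMC_new.

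At the edge of the gate, cells with a marker sum of 3, just outside, numbered 52 in C-ON and 145 in FMC_new, and those with a sum of 4, just inside, 45 and 88. Serpina3n was at 67.7 and 346 CPM just outside and at 64.9 and 234 CPM just inside. Klk6 was at 139 and 388 CPM outside and at 545 and 859 CPM inside. Klk8 was in 7.69% and 5.52% of the cells outside and in 2.22% and 4.55% of those inside. These cells were not thinned, and those outside were deeper, with a median of 3214.5 and 1976 UMIs against 1541 and 1561. The part of depth in these shares was not tested.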

How the data were processed

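Single cells of optic nerves of Nf1OPG mice were measured by droplet 5′ sequencing in 2 libraries, which form 1 group. The values used are the raw UMI counts per gene and cell deposited by the authors, made with Cell Ranger 7.2.0 on mm10 per the file headers and processing notes. The notes also name Seurat 5.2.1. Whether intronic reads or strand were counted is not given in the sources used here.

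Cells with 500 to 5000 genes, 500 to 20000 UMIs and at most 5% mitochondrial UMIs were kept, and no doublet caller was run. Each of 13 classes was gated on at least 4 UMIs of its 4 markers, with at most 1 oligodendrocyte marker UMI outside oligodendrocytes, and classes of at least 20 cells were read. CPM were computed from UMIs summed over a class. For co-detection, cells were thinned to 2000 UMIs. A gene with a UMI in at least 2% of oligodendrocytes of both libraries was called at a ratio of 2 or 0.5 in both. The genes named are those with the most extreme mean log2 ratio, up to 10 a direction for Serpina3n, Klk6 and Klk8 and 5 for the others. A count of 0 was read as up to 3 counts. Total UMIs were 85101211 and 129113325. Members and lists were chosen with earlier results of these data known. Alternatives were other gates, depths, thresholds and libraries left out. The ratio calls were tested on simulated data for the split by Serpina3n only, with changed genes in at least 5% of oligodendrocytes. Simulated counts were drawn independently for each gene and cell. They lack the uneven spread over cells seen in the real counts, so the simulation does not cover it. Splits by the other members, with fewer cells for Klk8, Slc9a3r2 and Tmem140, were not simulated. Computation used Python 3.11.15 with scipy 1.17.1, numpy 2.4.6 and pandas 2.3.3, and plots matplotlib 3.10.9.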

Additional observations from a re-analysis of the deposited data

How the results depend on the processing

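The levels of the 5 genes in oligodendrocytes stayed within the spread between libraries under every alternative that kept both libraries. So did the median pair ratio, a mean of 6.57 over both libraries, and the 9 pairs over a ratio of 2 stayed within 1.5 times, except where the later gene of the list split the cells. That order, chosen after seeing the data, gave 5 pairs and a median of 2.38, which is within the wide spread between libraries (SD 4.90) but over 1.5 times lower. The SD of the levels is wide for some genes too, at 386 around a mean of 622 CPM for Serpina3n. Staying within such a spread is therefore a weak requirement. Leaving out 1 library cannot move a mean of 2 libraries beyond their SD, so it cannot decide whether levels or the median ratio hold. Serpina3n was then at 895 CPM without C-ON and 348 CPM without FMC_new, and the median pair ratio at 3.10 and 10.0. Of the single pair ratios, 15 values moved beyond the spread between libraries and 45 did not, and no pair ratio turned below 1. The ratio of Klk8 shares split by Klk6 moved under all 6 settings of gate, barcodes, depth and detection, with means of 12.7 to 18.5, and that split by Serpina3n likewise, with 9.27 to 12.8. Counts of called genes moved by over 1.5 times as follows, in the order higher and lower for each gene. The number of genes read changed too, so these counts are not shares of 1 total. It was 7908 in the main setting, 5946 at 1000 UMIs and 9367 at 4000 UMIs. With a detection filter of 5% it was 5239, or 5240 for Tmem140. For Serpina3n (68 and 1), thinning to 1000 UMIs gave 36 and 2, thinning to 4000 UMIs 107 and 4, a detection filter of 5% 32 and 0, and a ratio of 1.5 126 and 27. The lower count was also 2 with a gate of 8, 0 without oligodendrocytes holding markers of another class, and 23 where the splitting gene needed 2 UMIs. For Klk6 (99 and 32), the same settings of depth, filter and ratio gave 52 and 21, 162 and 60, 51 and 12, and 227 and 144. For Klk8 (84 and 101), thinning to 4000 UMIs gave 127 higher, the filter 44 and 37, the ratio 186 and 406, and 2 UMIs of Klk8 228 lower, of which 40 were among the 101. For Slc9a3r2 (60 and 57), thinning to 1000 UMIs gave 38 and 88, thinning to 4000 UMIs 122 higher, 2 UMIs 114 and 132, the filter 28 and 13, and the ratio 152 and 240. For Tmem140 (82 and 60), thinning to 1000 UMIs gave 54 and 92, 2 UMIs 126 and 130, the filter 38 and 16, and the ratio 186 and 231. With 1 library left out, calls and the detection filter need 1 library in place of both, so further genes are read. Counts were then 97 to 136 higher and 14 to 82 lower for Serpina3n, 191 to 200 and 72 to 148 for Klk6, 201 to 223 and 387 to 691 for Klk8, 153 to 171 and 344 to 484 for Slc9a3r2, and 170 to 219 and 437 to 461 for Tmem140. Over the 7908 genes of the main setting, C-ON alone called 11 genes lower with Serpina3n and FMC_new alone 31. With Klk8 these counts were 355 and 581. Apart from these constructions, the cause was not tested. Of the lower calls of Klk8, Slc9a3r2 and Tmem140, 2 UMIs of the splitting gene kept 40, 12 and 11. No paired analysis was possible because both libraries belong to 1 group.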
